A study of Mus musculus with 12 samples.

Results

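The satellite glia and Schwann lineage genes described here are 10 genes that mark the glia of a sensory ganglion and their neural crest precursors: Sox10, Foxd3, Erbb3, Ednrb, Ptprz1, Cdh19, Fabp7, S100b, Apoe and Gja1. They were taken from the array by gene symbol, with the probe of highest mean signal for each symbol. All 10 were measured, each by 1 probe, among 19505 gene symbols on the array. The array values come from primary cultures of mouse trigeminal ganglion, whose neurons serve the face and mouth, grown on laminin and transfected with a small RNA. Each agent, miR-21, miR-34a, miR-324 or the control RNA scramble, was given to the cultures of 3 arrays. The labels do not tell whether those 3 are separate cultures or separate animals, and a p-value here therefore covers only their spread, perhaps a technical one. The labels give no mouse strain, age or sex, no dose or time after transfection, no arm of a miRNA hairpin, and no step that removed other cells from the neurons. The same suffix ends the titles of miR-34a 1 and 2 and scramble 1 and 2 (suffix A here), another is shared by miR-324 2 and scramble 3 (suffix B), while 6 arrays have no suffix. The titles of both suffix B arrays also hold the word mimic. What the suffix marks is not given in the sources used here.

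Satellite glia wrap the cell bodies of sensory neurons and Schwann cells wrap their axons, and both arise from the neural crest. The transcription factor Sox10 is needed in this lineage from the crest onwards and binds regulatory regions of many glial genes, Erbb3 among them. Neuregulin from axons signals through Erbb3 together with Erbb2 and keeps Schwann cell precursors alive. A dissociated ganglion carries these glia along with its neurons, so a culture named for its neurons can also hold glial RNA. In such bulk RNA, fewer cells of a type and less RNA per cell cannot be told apart.

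The agents themselves are short. The mature mouse sequences of both arms of each transfected miRNA, from RefSeq (GRCm38.p6), are shown because the groups differ by these agents, with the seed (bases 2 to 8 from the 5′ end) in capitals. The 6 seeds all differ.
mmu-miR-21a-5p: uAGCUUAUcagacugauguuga
mmu-miR-21a-3p: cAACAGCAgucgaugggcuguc
mmu-miR-34a-5p: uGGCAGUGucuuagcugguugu
mmu-miR-34a-3p: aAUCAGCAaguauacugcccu
mmu-miR-324-5p: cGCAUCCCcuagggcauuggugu
mmu-miR-324-3p: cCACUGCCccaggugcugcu

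The glial genes were well above the floor of the array in nearly every sample. Olfactory and vomeronasal receptor probes (1414), which few cells of a ganglion should express, gave the guide to that floor, with a 95th percentile of 5.33 on the log2 scale. Of the 10 genes 8 exceeded it on all 12 arrays, and Erbb3 and Ptprz1 dipped to 5.06 and 5.30 at their lowest. Other satellite glia genes were less complete: of 12 measured beyond these 10, Slc1a3, Gfap, Gjb6 and Scrg1 were under the floor guide on all 12 arrays, while Kcnj10, the potassium channel of satellite glia, stood between 5.82 and 8.53. Of 6 melanocyte genes 5 (Dct, Tyr, Pmel, Tyrp1 and Mlana) and of 6 astrocyte and oligodendrocyte genes 5 (Aqp4, Aldh1l1, Mog, Mobp and Opalin) were under it throughout.

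The arrays differed in other cells too, and did so inside groups. Macrophage genes (7 measured) had a summed log2 signal of 7.89 to 8.19 in miR-21, 7.18 to 11.57 in miR-34a, 6.98 to 7.23 in miR-324 and 7.33 to 11.72 in scramble, and were highest on the 4 suffix A arrays. Endothelial genes (7) ranged from 13.94 to 14.58 in miR-21, 14.26 to 17.42 in miR-34a, 16.77 to 18.29 in miR-324 and 14.09 to 16.51 in scramble. Pan-neuronal genes (8) ranged from 16.13 to 16.77 in miR-21, 14.88 to 18.19 in miR-34a, 14.64 to 16.91 in miR-324 and 17.27 to 18.37 in scramble, and were also highest on the 4 suffix A arrays. The pituitary hormone Prl stood at 14.98, 14.26 and 15.17 in miR-324 1, 2 and 4 and at 14.92 in scramble 3, against 3.37 to 4.83 on the other 8 arrays. The Y-linked gene Eif2s3y, chosen after its values were seen, was between 7.09 and 7.85 in all miR-21 arrays, at 8.53 in miR-34a 3 and at 7.88 in miR-324 1, with 5.13 or less on the remaining 7.

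All 10 genes varied more between arrays than the median named probe. Over the 12 arrays the standard deviation (SD) of their log2 signal ran from 0.55 for S100b to 2.46 for Apoe, against a median of 0.40 over all 19572 named probes. That median covers probes of every signal level. The 10 genes, with means from 6.67 (Ptprz1) to 13.22 (Sox10), were not set against probes of like signal. Apoe and Ednrb varied more than 99.8% and 99.7% of probes, and S100b more than 77.2%. Group membership accounted for 37.9% (S100b) to 75.6% (Erbb3) of this variation in the single genes, against a median of 35.1% over all probes. The plot of the signal on each array shows that the miR-21 arrays lay close together for Sox10, Foxd3, Cdh19, Fabp7 and Ednrb (SD of 0.14 to 0.22) and less so for Ptprz1 (0.67), Gja1 (0.62) and Apoe (0.61), while scramble 3 and miR-34a 3 stood away from the other arrays of their groups for several genes.

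**Figure D1:**
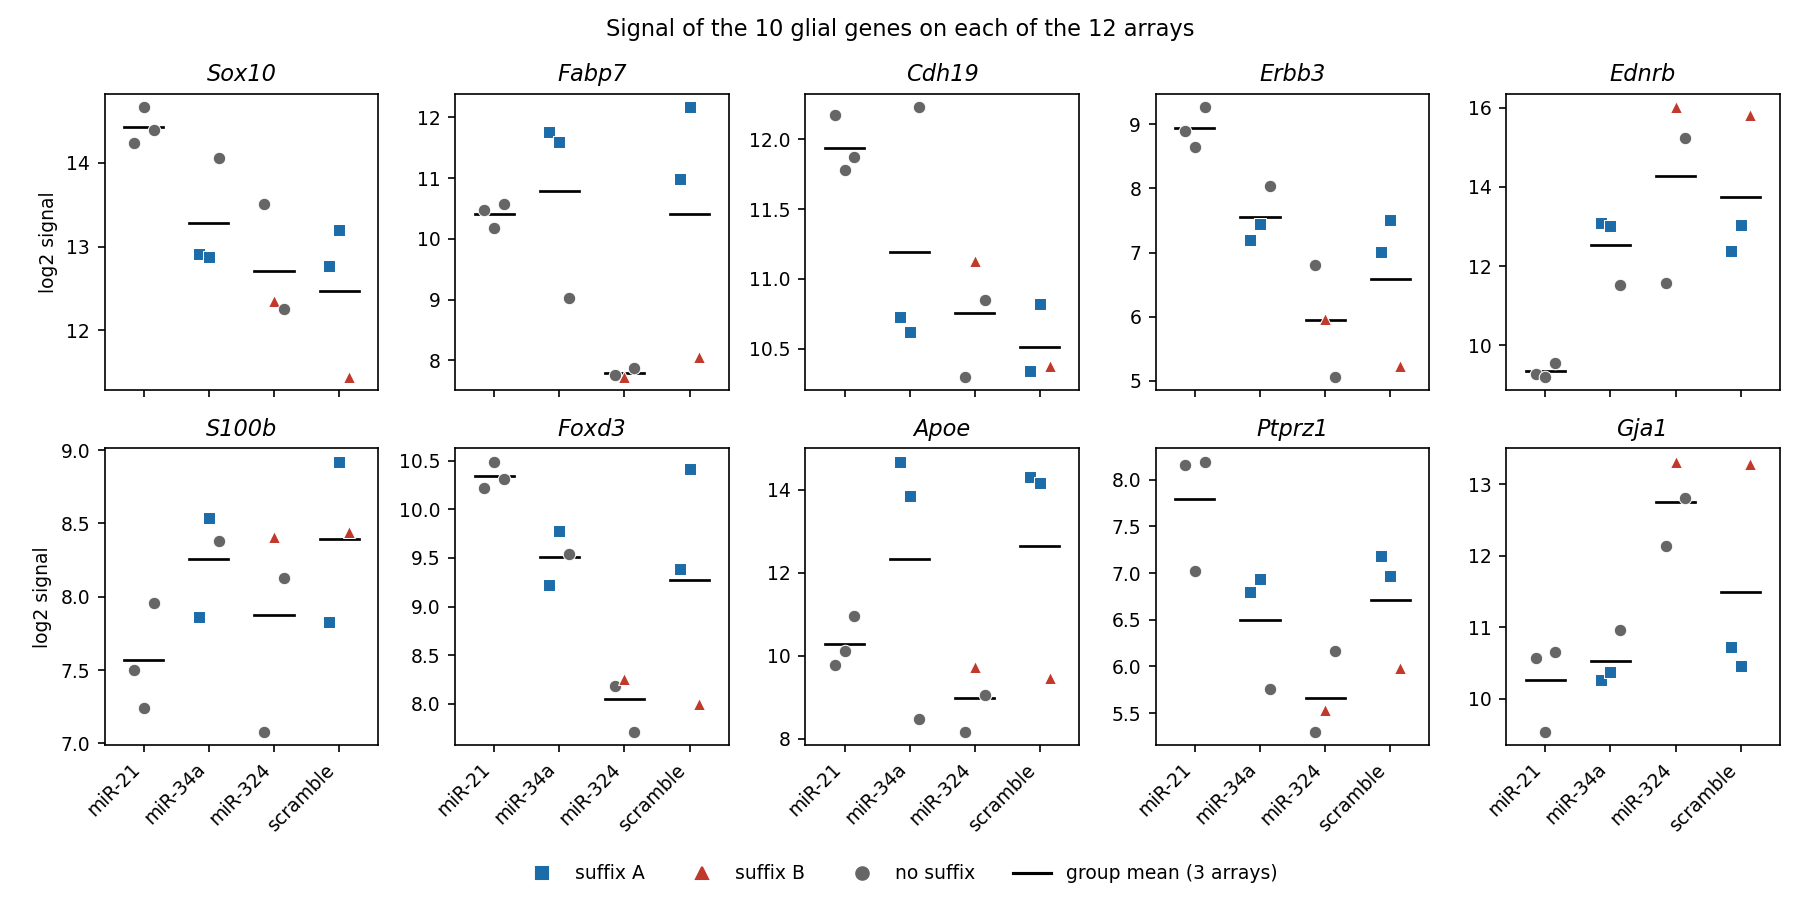
Log2 signal (vertical axes, separate scale for each gene) of the 10 glial genes on the 12 arrays, by group. Each point is 1 array, its shape gives the title suffix and the black lines are means of 3 arrays. Sox10 sits between 14.24 and 14.67 in the miR-21 arrays and between 11.44 and 13.20 in scramble, and Ednrb between 9.20 and 9.56 in miR-21 and between 12.39 and 15.82 in scramble.

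The transcription factors come first, since they stand at the head of the lineage. Sox10 had a log2 signal of 14.24, 14.67 and 14.39 in miR-21 1, 2 and 3. It stood at 12.91, 12.88 and 14.06 in miR-34a 1, 2 and 3. The miR-324 arrays 1, 2 and 4 stood at 13.51, 12.35 and 12.25, and scramble 1, 2 and 3 at 12.77, 13.20 and 11.44. Every miR-21 array was above every other array, and miR-34a 3 and miR-324 1 came closest to them. Foxd3, a forkhead factor of neural crest and early glial precursors, had 10.22, 10.49 and 10.31 in miR-21 and 9.22, 9.78 and 9.54 in miR-34a. It had 8.18, 8.25 and 7.71 in miR-324 1, 2 and 4, and 9.39, 10.42 and 8.00 in scramble. Scramble 2 reached the miR-21 level of Foxd3 and scramble 3 lay among the miR-324 arrays.

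Of the receptors, Erbb3 and Ednrb ran in opposite directions. Erbb3 stood at 8.90, 8.65 and 9.27 in miR-21 and 7.19, 7.44 and 8.03 in miR-34a. It stood at 6.80, 5.96 and 5.06 in miR-324 1, 2 and 4, against 7.01, 7.51 and 5.23 in scramble. The miR-21 arrays were again above all others. Ednrb, the type B endothelin receptor of neural crest progenitors and glia, which endothelial cells also carry, was at 9.26, 9.20 and 9.56 in miR-21 and 13.09, 13.01 and 11.53 in miR-34a. It was at 11.56, 16.02 and 15.23 in miR-324 1, 2 and 4 and at 12.39, 13.05 and 15.82 in scramble. Its 3 highest arrays, miR-324 2 and 4 and scramble 3, were among the 4 with prolactin signal, and the miR-21 arrays were below all others. Ptprz1, a receptor phosphatase that binds the growth factor pleiotrophin, had 8.16, 7.02 and 8.19 in miR-21 and 6.80, 6.94 and 5.76 in miR-34a. It had 5.30, 5.53 and 6.16 in miR-324 1, 2 and 4 and 7.18, 6.97 and 5.98 in scramble, so that miR-21 2 lay among the scramble arrays.

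The remaining genes encode adhesion, lipid, calcium and gap junction proteins. Cdh19, a cadherin of Schwann cell precursors, had 12.17, 11.78 and 11.87 in miR-21 and 10.73, 10.62 and 12.23 in miR-34a. It had 10.30, 11.13 and 10.85 in miR-324 1, 2 and 4 and 10.34, 10.82 and 10.38 in scramble, and miR-34a 3 was the only array outside miR-21 at the miR-21 level. Fabp7, a fatty acid binding protein of satellite glia, had 10.47, 10.18 and 10.57 in miR-21 and 11.76, 11.59 and 9.03 in miR-34a. It had 7.76, 7.73 and 7.87 in miR-324 1, 2 and 4 and 10.98, 12.17 and 8.06 in scramble, so the 4 suffix A arrays were highest. S100b, a calcium-binding protein of glia, stayed between 7.08 and 8.92 on all 12 arrays, and all 4 groups overlapped.

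Apoe, the lipid carrier made by glia and macrophages, divided the arrays by suffix. It stood at 14.67 and 13.85 in miR-34a 1 and 2 and at 14.31 and 14.15 in scramble 1 and 2, against 8.17 to 10.97 on the other 8 arrays. The macrophage genes were high on the same 4 arrays, with Csf1r, the receptor of macrophage growth factor, at 9.20 and 8.79 in miR-34a 1 and 2, at 8.76 and 8.64 in scramble 1 and 2, and at 4.05 to 6.39 elsewhere. Their part in the Apoe values was not tested. Gja1, a connexin that couples satellite glia and is also present in fibroblasts and endothelium, had 10.57, 9.54 and 10.66 in miR-21 and 10.27, 10.37 and 10.96 in miR-34a. It had 12.13, 13.31 and 12.80 in miR-324 1, 2 and 4 and 10.72, 10.46 and 13.28 in scramble, so the 4 arrays with prolactin signal were the highest.

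The comparison of miR-21 with scramble comes first. Eif2s3y was between 7.09 and 7.85 on all miR-21 arrays and between 2.13 and 2.93 on all scramble arrays. The agent and this other difference between the arrays cannot be told apart here. Higher means in the miR-21 arrays were found for Sox10, Erbb3, Cdh19, Foxd3 and Ptprz1, and lower ones for Ednrb, S100b, Apoe and Gja1, but none of the 10 passed the threshold. Differences were tested with limma on the log2 signals of all 12 arrays, and a gene was called at an adjusted p under 0.05 (Benjamini-Hochberg over 19572 named probes). By this test 0 of 10 genes were called, against 1.04% of all probes, and 7 of 10 had an unadjusted p under 0.05, against 16.6% of all probes. Erbb3 averaged 8.94 ± 0.31 in miR-21 and 6.58 ± 1.20 in scramble (SD, n = 3 each), a difference of 2.36 (SE 0.55, limma adjusted p = 0.0626). Sox10 averaged 14.43 ± 0.22 in miR-21 and 12.47 ± 0.92 in scramble, a difference of 1.96 (SE 0.48, limma adjusted p = 0.0716). Ednrb averaged 9.34 ± 0.19 in miR-21 and 13.75 ± 1.82 in scramble, a difference of -4.41 (SE 1.04, limma adjusted p = 0.067). The arrays of both groups did not overlap for these 3 genes and for Cdh19, whose difference was 1.43 (SE 0.39, limma adjusted p = 0.0966). Such separation held for 4 of 10 genes, against 25.6% of all probes. For Fabp7, with a difference of 0.00 (SE 0.88), the scramble arrays lay on both sides of miR-21. Without miR-34a 3, whose only part in this comparison is the shared estimate of spread, 4 of the 10 were called, 3 higher and 1 lower, and without miR-324 1, 2 were called. How many of all probes were called in these fits is not given here, so the counts cannot be set against a share.

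Neither of the other miRNAs gave a call against scramble. For miR-34a, 0 of 10 were called by limma, against 0% of all probes, with 0 of 10 at an unadjusted p under 0.05 against 1.46% of probes. Its largest differences were -1.21 for Ednrb, 0.97 for Erbb3 and -0.95 for Gja1, each at 0.999 after adjustment, and 0 of 10 genes had groups that did not overlap, against 5.8% of probes. For miR-324, 0 of 10 were called, also against 0% of all probes, and 4 of 10 had an unadjusted p under 0.05, against 14.7%. Groups did not overlap for 1 of 10, Fabp7, against 19.9% of probes. Apoe averaged 8.98 ± 0.78 in miR-324 and 12.64 ± 2.76 in scramble (SD, n = 3 each), a difference of -3.66 (SE 1.48, limma adjusted p = 0.322). Fabp7 averaged 7.79 ± 0.07 in miR-324 and 10.40 ± 2.11 in scramble, a difference of -2.62 (SE 0.88, limma adjusted p = 0.309). The 2 high scramble values of both genes were the suffix A arrays, and scramble 3 stood close to miR-324. Without scramble 3, Fabp7 and Foxd3 were called lower and Gja1 higher. Both scramble arrays left in that fit had suffix A, which no miR-324 array has. Between the suffix B arrays, miR-324 2 and scramble 3, the differences were -0.33 for Fabp7, 0.25 for Foxd3 and 0.03 for Gja1. The share of all probes called without scramble 3 is not given here.

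**Figure D2:**
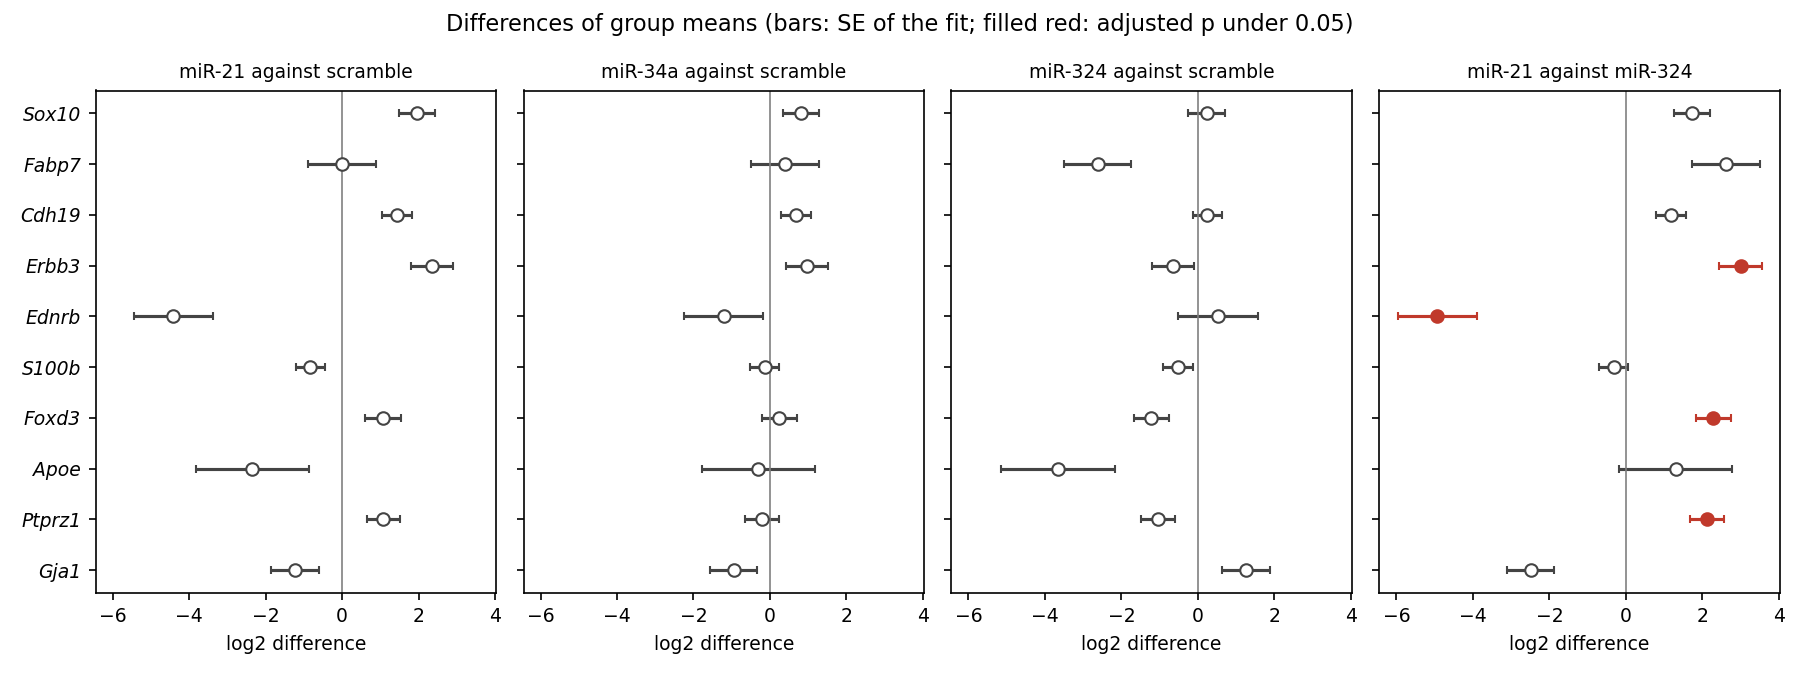
Differences in log2 signal (horizontal axes) of the 10 glial genes in 4 comparisons between groups. Points are differences of group means of 3 arrays, bars are 1 standard error from limma and filled red points have an adjusted p under 0.05. Filled points appear only in miR-21 against miR-324, where Erbb3 (3.00), Foxd3 (2.29) and Ptprz1 (2.13) lie right of 0 and Ednrb (-4.93) left of it.

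The largest contrast lay between miR-21 and miR-324, and this is where genes of the lineage passed the test. Prl stood at 14.98, 14.26 and 15.17 on the miR-324 arrays, against 3.37, 3.95 and 3.98 on the miR-21 arrays. Eif2s3y was at 7.88, 2.96 and 5.13 in miR-324 1, 2 and 4, against 7.09 to 7.85 in miR-21. The agent and these other differences between the arrays cannot be told apart here. Erbb3, Foxd3 and Ptprz1 were higher and Ednrb was lower in miR-21 than in miR-324. In all 4 of 10 were called, against 2.46% of all probes: 3 of 10 higher, against 1.31% of all probes, and 1 of 10 lower, against 1.14%. At an unadjusted p under 0.05 there were 8 of 10, against 14.7%. Erbb3 averaged 8.94 ± 0.31 in miR-21 and 5.94 ± 0.87 in miR-324 (SD, n = 3 each), a difference of 3.00 (SE 0.55, limma adjusted p = 0.0163). Foxd3 averaged 10.34 ± 0.14 in miR-21 and 8.05 ± 0.29 in miR-324, a difference of 2.29, or 4.90-fold (SE 0.46, limma adjusted p = 0.0232). Ptprz1 averaged 7.79 ± 0.67 in miR-21 and 5.66 ± 0.45 in miR-324, a difference of 2.13 (SE 0.44, limma adjusted p = 0.026). The low side of both receptors reached the floor guide of 5.33, with Erbb3 at 5.06 in miR-324 4 and Ptprz1 at 5.30 in miR-324 1, so the size of these differences is limited by background. Ednrb averaged 9.34 ± 0.19 in miR-21 and 14.27 ± 2.38 in miR-324, a difference of -4.93 (SE 1.04, limma adjusted p = 0.0313). Its miR-324 values fell into a lower array, miR-324 1 at 11.56, and 2 high ones. The other genes gave values short of the threshold, among them Gja1 with -2.49 (adjusted p = 0.0618) and Sox10 with 1.73 (adjusted p = 0.0918). The median difference of the 10 was 1.52, against 0.05 over all probes, and 9 of 10 had groups that did not overlap, against 21.4% of probes.

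The calls in this contrast rested on few arrays. Leaving out each array in turn, 0 to 7 of the 10 were called: 0 without miR-21 1, miR-21 3, miR-324 2 or miR-324 4, 1 without miR-21 2, and 7 without miR-34a 3 or scramble 3. These counts stand without the share of all probes called in the same fit, which is not given here. Erbb3 kept a difference of 2.56 to 3.43, Foxd3 of 2.13 to 2.40, Ptprz1 of 1.93 to 2.51 and Ednrb of -6.28 to -4.05 across these 12 fits, with adjusted p-values up to 0.0795 for Erbb3, 0.111 for Foxd3, 0.122 for Ptprz1 and 0.134 for Ednrb. Without both suffix B arrays 5 were called, the same 4 and Gja1 (-2.21, adjusted p = 0.0143), with 507 probes called in all. Endothelial genes and prolactin moved with this contrast, lower in miR-21 for Kdr (-3.45), Tie1 (-3.51), Cldn5 (-5.20) and Prl (-11.04). The part of endothelial and pituitary cells in the values of the 10 genes was not tested. Fibroblast and mural genes were mixed: of 5 fibroblast genes 3 were higher and 2 lower in miR-21, and of 6 mural genes 3 were higher and 3 lower. Those called were all higher, Col1a1 (4.66), Col1a2 (6.00) and Cspg4 (2.77). The part of fibroblast and mural cells in the Erbb3, Foxd3 and Ptprz1 values was not tested.

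Each of the 4 called genes differed between the extremes of its 4 group means only. For Erbb3 the order was miR-21 (8.94), miR-34a (7.55), scramble (6.58) and miR-324 (5.94), and for Foxd3 miR-21 (10.34), miR-34a (9.51), scramble (9.27) and miR-324 (8.05). For Ptprz1 it was miR-21 (7.79), scramble (6.71), miR-34a (6.50) and miR-324 (5.66), and for Ednrb, from low to high, miR-21 (9.34), miR-34a (12.54), scramble (13.75) and miR-324 (14.27). No neighbours in these orders differed beyond the threshold. Comparing miR-34a with miR-21 gave 0 of 10 calls by limma, against 0.158% of all probes, with Ednrb at 3.20 (adjusted p = 0.288) and 4 of 10 at an unadjusted p under 0.05, against 11.3%. Groups did not overlap for 5 of 10, against 17% of probes, and 1 gene was called without miR-34a 3. Comparing miR-34a with miR-324 gave 0 of 10 calls, against 0% of all probes, with Fabp7 at 3.01 and Gja1 at -2.21 (adjusted p = 0.318 each) and 5 of 10 at an unadjusted p under 0.05, against 13%. Groups did not overlap for 4 of 10, against 17.1% of probes, and 2 genes were called without miR-34a 3 and 1 without scramble 3. For the fits without an array in both comparisons, the share of all probes called is not given here.

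Arrays that share a title suffix allow a comparison of agents within that suffix. Among the suffix A arrays, miR-34a 1 and 2 against scramble 1 and 2, all 10 genes differed by between -0.40 (Foxd3) and 0.33 (Ednrb), and Apoe by 0.03. Between the suffix B arrays, miR-324 2 against scramble 3, the largest difference was 0.91 for Sox10 (SE 0.53), followed by 0.75 for Cdh19 (SE 0.42) and 0.73 for Erbb3 (SE 0.65). These 3 lay above the differences over all arrays of miR-324 and scramble (0.23, 0.25 and -0.64), whereas Apoe at 0.26 and Fabp7 at -0.33 were closer to 0 than over all arrays (-3.66 and -2.62). No gene of the 10 and 0 of 19572 probes were called in either set by limma, with 243 probes at an unadjusted p under 0.05 for suffix A and 941 for suffix B. In suffix B 1 array stood against 1, so its spread was assumed to be that of the other groups. Distances inside a group were often larger: Apoe in scramble 3 was 4.77 below the mean of scramble 1 and 2, and Ednrb in miR-324 1 was 4.06 below that of miR-324 2 and 4. The miR-21 arrays carry no suffix, so miR-21 had no such comparison with scramble.

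**Figure D3:**
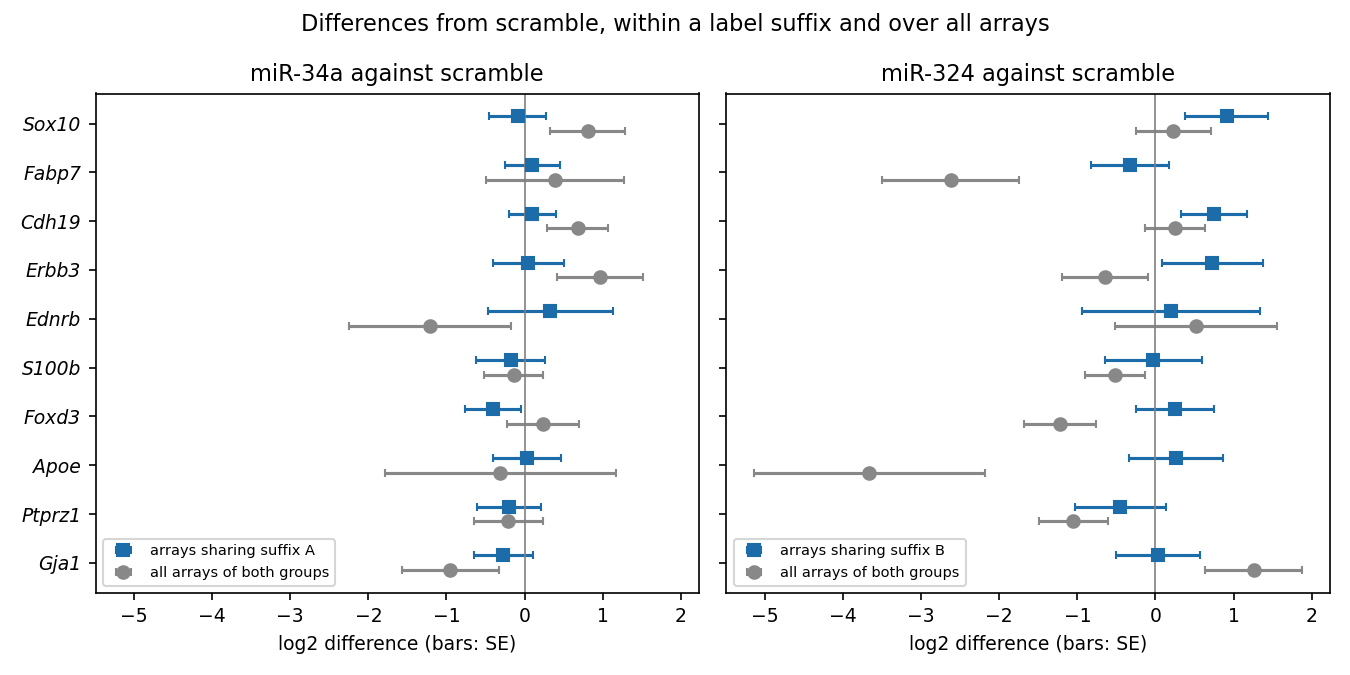
Differences in log2 signal (horizontal axes) of the 10 glial genes between a miRNA and scramble, from arrays with the same title suffix (blue squares) and from all 3 arrays a group (grey circles). Bars are 1 standard error. In the miR-34a panel (suffix A) all squares lie between -0.40 and 0.33, and in the miR-324 panel (suffix B) the widest is Sox10 at 0.91.

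Across arrays the genes formed sets, described here by correlation over the same 12 arrays, which share groups and suffixes and are not independent. Sox10 and Erbb3 went together (Pearson r = 0.92, Spearman rho = 0.90), as did Erbb3 and Foxd3 (r = 0.90, rho = 0.90). Ednrb ran against Sox10 (r = -0.95, rho = -0.91) and against Erbb3 (r = -0.93, rho = -0.83), and Foxd3 against Gja1 (r = -0.90, rho = -0.75). Fabp7 and Apoe formed another pair (r = 0.86, rho = 0.87), and both were highest on the suffix A arrays. Of all 45 pairs, 25 were positive and 20 negative. So the 10 genes did not move as one block. The plot of signals centred on each gene's mean shows the sets side by side.

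**Figure D4:**
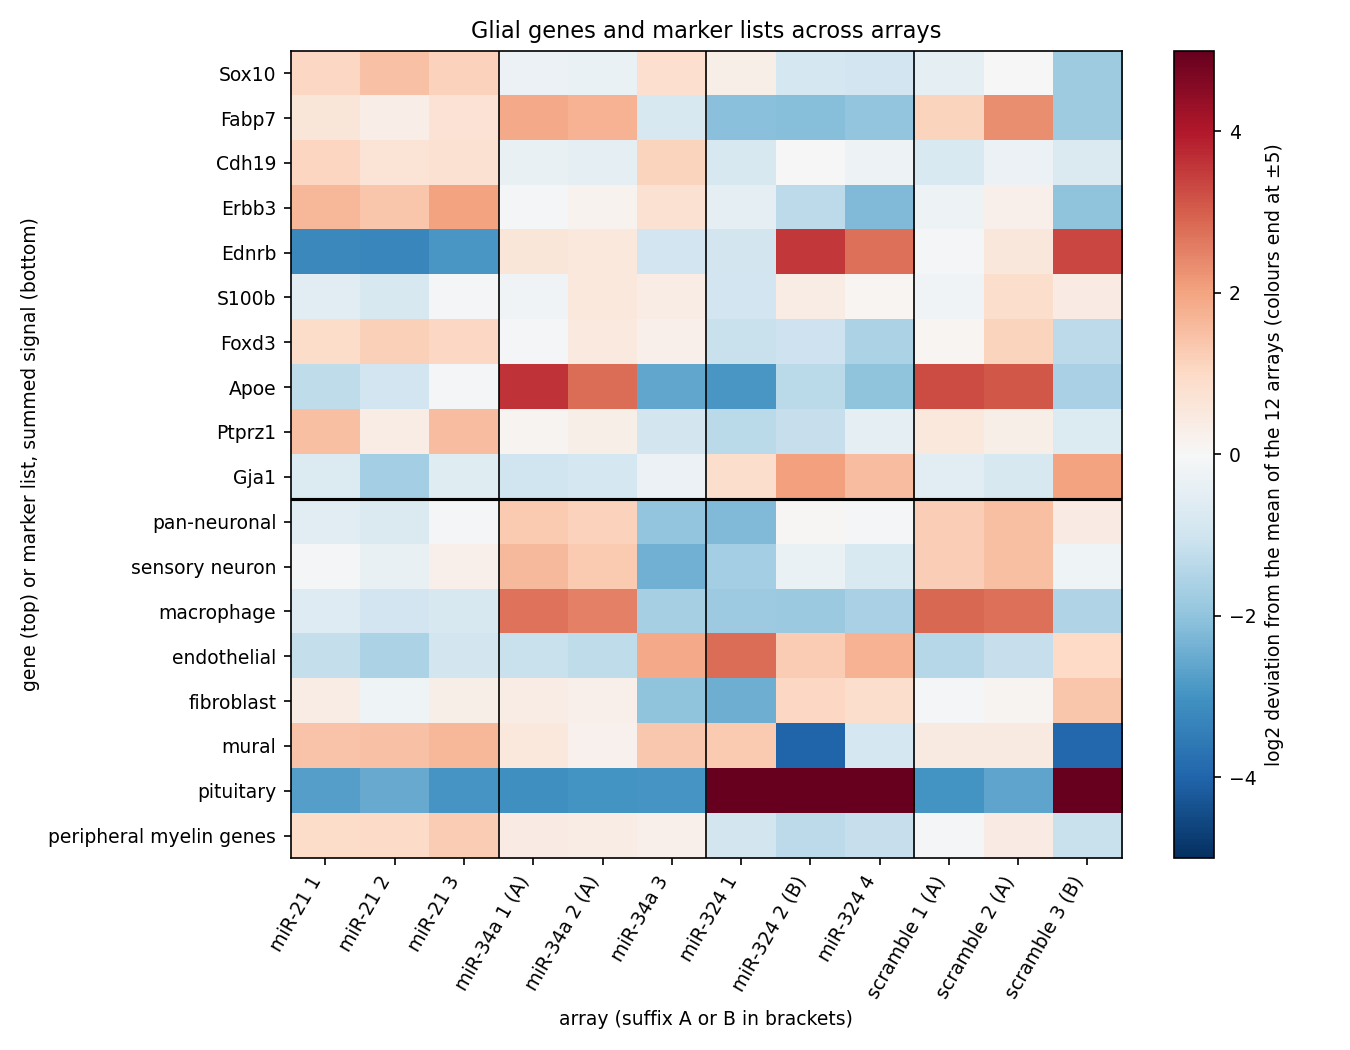
Log2 signal minus its mean over 12 arrays, in colour, of each glial gene (top) and of the summed signal of marker lists (below the thick line), with arrays along the bottom by group. Sox10, Erbb3 and Cdh19 are high in the 3 miR-21 arrays where Ednrb is low, and Apoe and Fabp7 are high in miR-34a 1 and 2 and in scramble 1 and 2.

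For each gene the 3 most similar profiles among named probes were picked by Pearson r over the 12 arrays, 30 genes in all with r between 0.91 and 0.985. Numbered or predicted placeholder symbols and olfactory and vomeronasal receptors were left out of the search. Nearest to Sox10 came Sort1 (r = 0.982) and Gldn (r = 0.981), gliomedin being a Schwann cell protein of nodes of Ranvier. Gldn stood at 14.08, 14.30 and 14.27 on the miR-21 arrays and at 11.48, 11.27 and 13.45 in those of miR-34a. It stood at 12.61, 9.30 and 10.55 in miR-324 1, 2 and 4 and 11.34, 11.83 and 8.61 in scramble. Nearest to Erbb3 was Arhgef26 (r = 0.982), to Ednrb Xdh (r = 0.976), and to Foxd3 Gpm6b (r = 0.955), a membrane proteolipid of glia and neurons. Apoe was followed by Srebf2 (r = 0.985), a regulator of cholesterol synthesis, and Spi1 (r = 0.984), the myeloid factor PU.1. Fabp7 was followed by Trpm8 (r = 0.982), the cold receptor of sensory neurons, and Ptprz1 by Mrgprd (r = 0.972), a receptor of nociceptors. Both are neuronal genes, and the part of neuronal signal in the Fabp7 and Ptprz1 values was not tested.

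The lineage around these genes was followed with lists of satellite glia, Schwann lineage, myelin, repair and signalling genes. In miR-21 against scramble, 0 of 12 further satellite glia genes were called, against 1.04% of all probes. Called higher were 3 of 21 Schwann lineage genes and 3 of 13 peripheral myelin genes, and none of these 34 was called lower. By mean, 16 of the 21 Schwann lineage genes were higher in miR-21 and 5 lower, and all 13 myelin genes were higher. The median difference was 0.17 for satellite glia genes, 0.96 for Schwann lineage genes and 1.67 for myelin genes, against 0.13 over all probes. Pmp2, a lipid-binding myelin protein, had 12.86, 12.68 and 13.05 in miR-21, against 8.85, 8.97 and 4.24 in scramble, a difference of 5.51 (SE 1.02, limma adjusted p = 0.0284). Mbp, the myelin basic protein, had 14.22, 14.40 and 14.60 in miR-21, against 10.61, 10.95 and 9.95 in scramble, a difference of 3.90 (SE 0.82, limma adjusted p = 0.0457). Neither gene's groups overlapped, and for Mbp miR-34a 3 reached 14.01, near the miR-21 level. Cldn19, a claudin of Schwann cells, differed by 2.88 (limma adjusted p = 0.0172), and the Schwann lineage genes called were Tead1 (2.12), a partner of YAP, Egfl8 (1.62) and Gas7 (1.60). Egr2, the master regulator of myelination, differed by 2.31 with an adjusted p of 0.115, and its miR-21 values of 13.85 to 14.47 lay above all scramble values. None of these 6 calls held in all 12 fits that left out an array. Pmp2 lost its call without any of the 3 miR-21 arrays (adjusted p up to 0.125, difference 3.95 to 6.32), and Mbp without any miR-21 or scramble array, miR-324 2 or miR-324 4 (up to 0.153). Cldn19 lost it without any miR-21 array, scramble 2 or scramble 3 (up to 0.089), and Tead1, Egfl8 and Gas7 without 5 of the 12 arrays each, all of them miR-21 or scramble (up to 0.0871, 0.0738 and 0.134). The fibroblast gene Col1a2 (4.45) and the mural gene Cspg4 (2.65) were also called higher in miR-21 against scramble, but their lists were mixed. Of 5 fibroblast genes 2 were higher and 3 lower (median -0.80), and of 6 mural genes 3 were higher and 3 lower (median -0.04). The part of fibroblast and mural cells in the Schwann lineage and myelin values was not tested.

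Among ligands, receptors and carriers, most did not pass. In miR-21 against scramble 1.04% of all probes were called. None of 10 neuregulin and ErbB genes, 5 endothelin genes, 8 Ptprz1 partners or 12 S100 genes were called there. Repair Schwann genes had 1 of 13 called, connexins 1 of 9 and fatty acid binding proteins 1 of 8 (Pmp2, also counted among the myelin genes). The calls were Gdnf, a trophic factor (2.09), and Gjc3, a connexin of Schwann cells (2.35), each lost without any single miR-21 or scramble array (adjusted p up to 0.132 and 0.157), and Gjc3 also without miR-34a 1, miR-324 2 or miR-324 4. Of 11 lipid transport genes 2 were called. Abca1, the cholesterol exporter that loads Apoe, rose by 2.63 (limma adjusted p = 0.0283), a call lost without any miR-21 array, scramble 1 or scramble 3 (up to 0.123). Clu, another lipid-binding apolipoprotein, stood at 9.07, 8.77 and 9.53 in miR-21, against 11.74, 12.11 and 11.46 in scramble, and fell by 2.65 (SE 0.36, limma adjusted p = 0.00969). Its groups did not overlap, and all miR-34a and miR-324 arrays were above all miR-21 arrays as well. The Clu call was lost without miR-21 1 or 2 (adjusted p up to 0.061). Edn1, a ligand of Ednrb, ranged from 9.72 in scramble 3 to 16.32 in miR-324 1 and differed by 1.44 between miR-21 and scramble (adjusted p = 0.606). Against scramble, limma called 0 genes of these lists for miR-34a or miR-324.

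In miR-21 against miR-324, where 2.46% of all probes were called, Schwann lineage and myelin genes had as many calls as against scramble. Higher in miR-21 were 3 of 21 Schwann lineage genes, among them Ncam1 (3.99), 3 of 13 myelin genes, Pmp2 (6.78), Cldn19 (2.32) and Pmp22 (2.10), and the satellite glia gene Fbln5 (2.75), while the satellite glia gene Sparcl1 was lower (-1.69). Of the lipid transport genes Abca1 (2.33) and Vldlr (1.55), a lipoprotein receptor, were higher and Clu lower (-2.01). Ncam1, the neural cell adhesion molecule, had 15.56, 15.28 and 15.40 in miR-21, against 11.22, 11.54 and 11.50 in miR-324 1, 2 and 4, and scramble 3 (11.46) and miR-34a 3 (11.49) stood at the miR-324 level. The calls of Pmp2, Egfl8 and Fbln5 held in all 12 fits that left out an array, with Pmp2 differing by 6.22 to 7.53. Ncam1 lost its call without any miR-21 or miR-324 array (adjusted p up to 0.14), Cldn19 and Pmp22 without any miR-21 array, miR-324 2 or miR-324 4 (up to 0.108 and 0.0747), and Clu and Sparcl1 without miR-21 1, miR-21 2 or miR-324 4 (up to 0.0727 and 0.0686). Abca1 lost it without any miR-21 array, miR-324 2 or miR-324 4 (up to 0.129), and Vldlr without miR-21 2, miR-21 3 or miR-324 4 (up to 0.0579). In miR-34a against miR-21, Egfl8 was lower (-1.65) and Clu higher (2.28, limma adjusted p = 0.0346 each), and both calls held in 4 of 12 such fits.

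The 250 bases before the start site, from RefSeq (GRCm38.p6), are shown for the called genes that have an entry, because these genes moved between miR-21 and miR-324 in opposite directions. Capitals mark motif matches on either strand. The motifs were chosen after the sequences were seen. They were TGACGTCA (cyclic AMP response element), CACGTG (E-box), GGGCGG (GC box), ACAAAG (SOX core) and TGANTCA (AP-1).
Foxd3, chr4:99656049-99656298, plus strand: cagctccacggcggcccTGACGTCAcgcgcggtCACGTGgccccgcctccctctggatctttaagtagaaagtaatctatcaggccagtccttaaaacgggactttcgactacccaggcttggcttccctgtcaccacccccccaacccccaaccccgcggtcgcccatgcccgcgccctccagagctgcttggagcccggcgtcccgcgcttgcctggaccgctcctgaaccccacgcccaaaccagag
Ptprz1, chr6:22875252-22875501, plus strand: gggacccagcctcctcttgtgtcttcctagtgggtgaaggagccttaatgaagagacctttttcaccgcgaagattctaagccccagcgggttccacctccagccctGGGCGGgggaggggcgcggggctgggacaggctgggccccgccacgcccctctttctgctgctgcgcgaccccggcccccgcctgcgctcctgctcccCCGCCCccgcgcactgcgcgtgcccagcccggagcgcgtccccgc
Ednrb, chr14:103843702-103843951, minus strand: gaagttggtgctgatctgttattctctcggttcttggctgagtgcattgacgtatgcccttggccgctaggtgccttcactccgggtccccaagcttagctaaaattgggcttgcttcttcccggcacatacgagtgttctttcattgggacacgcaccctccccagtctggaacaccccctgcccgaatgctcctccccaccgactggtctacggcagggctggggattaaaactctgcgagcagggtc
Foxd3 held TGACGTCA 233 bases and CACGTG 217 bases before the start, letters found in 1.5% and 6.0% of 32851 windows of this length. Ptprz1 held GGGCGG 143 and 45 bases before the start, found in 32.7% of windows. None of the 5 motifs was in the Ednrb window. Of the 10 genes 7 had an entry, with 9 windows, and 1 of the 9 windows held ACAAAG (Apoe, 16.5% of all windows) and 1 held TGANTCA (Gja1, 6.7%). A match describes letters only.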

How the data were processed

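RNA from cultured mouse trigeminal ganglion neurons was measured on 12 Clariom S Mouse arrays, grouped by title, with 3 arrays for each of the 3 miRNAs and for scramble. The deposited values are log2 signals that the authors made with RMA in Transcriptome Analysis Console 4.0, per the submitters' processing notes. The genome build is not given in the sources used here. Array medians were 5.91 to 6.06, and the number of arrays limits the precision.

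Of 22206 probes, 19572 carry 1 gene symbol in the platform annotation, which can be old, and 2634 were left unnamed. limma 3.58.1 (R 4.3.3) was fitted with 4 group means over 12 arrays, with Benjamini-Hochberg adjustment over the 19572 probes in each of 6 comparisons. Where a list gene has several probes, the probe of highest mean was taken. The fit was tested on simulated data. Alternatives were other scalings, a brightness filter, only the groups compared, the title suffix or number as a block, and arrays left out. Genes were named by a fixed rule: the 10 genes, called list genes, and the 3 nearest profiles of each. Genes of other lists named between miRNAs, the cell markers, and Egr2, Edn1, Kcnj10, Sox2, Ngfr and Nrg1 fall outside it and were chosen after their values were seen. The members and lists were chosen with earlier results of these data known.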

Additional observations from a re-analysis of the deposited data

How the results depend on the processing

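Calls depended on the arrays and the model. In miR-21 against scramble, 1 of the 10 glial genes was called with only bright probes, where 306 probes were called in all. With only the groups compared 4 were called. The suffix as a fixed block gave 1 call and moved the median difference to 1.32. In miR-21 against miR-324, 8 were called with only the groups compared, 7 with the suffix block and 0 with the title number as a replicate block. In miR-34a against miR-21 the suffix block gave 3 calls and a median of -1.08, with 1004 probes called in all, against 31 without the block. Same-numbered arrays deviated from their group means with correlations of -0.41 to 0.36. Deviations from a mean of 3 arrays depend on each other, so these values cannot tell whether the numbers mark paired arrays. The array called scramble 3 carries the title number 1, as scramble 1 does, so that block holds both.

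Some directions turned, none of them called as reported. In miR-21 against scramble Fabp7 was -0.03 after quantile normalization and after centring, and -1.17 without both suffix B arrays (an alternative chosen after seeing the data). Without those arrays, miR-34a against scramble gave Fabp7 -0.78 and Foxd3 -0.39, and miR-324 against scramble gave Sox10 -0.11 and Cdh19 0.00. The replicate block gave Apoe 0.33 (miR-34a against scramble) and Ednrb -0.08 (miR-324 against scramble). The suffix block gave Apoe 1.89 in miR-21 against scramble, S100b 0.03 and Apoe 0.05 in miR-34a against scramble, and Sox10 -0.06, Cdh19 -0.28 and Apoe 0.22 in miR-324 against scramble. It gave Fabp7 -1.55 (adjusted p = 0.0306) and Apoe -1.83 (adjusted p = 0.0255) in miR-34a against miR-21, both called, and Apoe -0.17 in miR-34a against miR-324. As a random block it gave Fabp7 -0.47 in miR-34a against miR-21. The causes were not tested.

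The next ranges come from leaving out each array in turn, and the share of all probes called in each such fit is not given here. In miR-21 against scramble 0 to 4 of the 10 were called and the difference was -1.17 to 0.89 for Fabp7. In miR-21 against miR-324 0 to 7 of the 10 were called. In miR-34a against miR-21 0 to 1 of the 10 were called and the difference was -0.08 to 0.48 for Gja1 and -0.10 to 1.27 for Fabp7. In miR-34a against scramble the difference was -0.78 to 1.27 for Fabp7, -0.42 to 0.13 for S100b, -1.90 to 1.62 for Apoe, -0.57 to 0.16 for Ptprz1 and -0.39 to 0.82 for Foxd3. In miR-34a against miR-324 0 to 2 of the 10 were called and the difference was -0.09 to 0.72 for Cdh19 and -0.01 to 0.66 for S100b. In miR-324 against scramble 0 to 3 of the 10 were called and the difference was -0.28 to 0.60 for Sox10 and -0.36 to 1.87 for Ednrb.

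Over all probes, miR-21 against scramble gave 204 calls, 906 with only the groups compared, 684 with the suffix block, 34 with it as a random block and 2 with the replicate block, and miR-21 against miR-324 gave 481, 1043, 1354, 803 and 23. With 3 arrays a group, differences of several standard errors could fall short of the threshold, such as -4.41 for Ednrb (SE 1.04) in miR-21 against scramble.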

Other observations

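A few other genes, chosen after their values were seen, are given as values. Kcnj10, the potassium channel by which satellite glia buffer the surroundings of neurons, stood at 7.30, 7.88 and 7.65 on the miR-21 arrays and at 8.00, 8.38 and 6.80 in those of miR-34a. It stood at 6.39, 6.11 and 5.95 in miR-324 1, 2 and 4 and 7.82, 8.53 and 5.82 in scramble. Scramble 3 was its lowest array and scramble 2 its highest. Sox2, a factor of immature glia, was between 13.12 and 13.55 in miR-21 and between 11.27 and 12.31 in scramble, a difference of 1.52 (limma adjusted p = 0.142), and miR-34a 3 was higher still at 13.71. Ngfr, the low-affinity neurotrophin receptor of Schwann cells, was between 14.68 and 15.26 in miR-21 and between 13.72 and 14.30 in scramble, a difference of 0.90 (limma adjusted p = 0.106). The groups did not overlap for Sox2 or Ngfr, but neither passed the test. Nrg1, the neuregulin that binds Erbb3, was between 10.25 and 10.97 in miR-21 and between 9.61 and 11.50 in scramble, a difference of -0.16 (limma adjusted p = 0.929).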
